A study of Homo sapiens with 6 samples.

Results

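This account describes 9 genes of EA.hy926 cells that carry an epithelial or mesenchymal identity: the keratins KRT7, KRT8, KRT18, KRT19 and KRT80, the epithelial surface genes EPCAM and MUC1, and the mesenchymal genes CDH2 and VIM. They were chosen by name, as genes in which the carcinoma parent of the line might show, and all 9 had a row among the 22153 genes of the table analysed here. Of the 9, 7 passed the filter on low values and were tested, while KRT19 and EPCAM lay below it.

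EA.hy926 is a human line obtained by fusing umbilical vein endothelial cells with A549, a lung carcinoma line, and the labels call its cell type endothelial. Polyadenylated RNA was sequenced from cells of this line kept at 1% oxygen for 8 h after reaching near confluence (hypoxia, 3 libraries) and from cells at 20% oxygen (normoxia, 3 libraries). Both groups are the same hybrid line with no genetic change between them, so every level below is that of a fusion line and not of a primary endothelial or lung cell. The study asked which genes change in these cells after the hypoxic exposure.

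Keratins are the intermediate filament proteins of epithelial cells, and each filament is built from obligate pairs of a type II and a type I chain. KRT8 (type II) and KRT18 (type I) form the basic pair of simple, single-layered epithelia, to which KRT7 (type II) and KRT19 (type I) are added in ducts and many glandular tissues. VIM, vimentin, is the intermediate filament protein of mesenchymal and endothelial cells, and carcinoma cells in culture often hold keratin and vimentin together.

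The keratins resemble each other in sequence, also at the end of their central rod domain, which matters for reads that must be assigned to a single member. The stretch of 60 coding bases that encodes this rod end is shown for KRT18 and KRT19, the abundant and the scarce type I member, read 5′ to 3′ on the coding strand from GENCODE 29 transcripts (GRCh38), with capitals at the 41 positions where both genes have the same base. Each window lies in a single exon, at chr12:52952278-52952337 (+) for KRT18 and chr17:41523779-41523838 (-) for KRT19.
KRT18: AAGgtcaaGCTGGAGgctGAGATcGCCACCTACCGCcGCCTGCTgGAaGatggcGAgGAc
KRT19: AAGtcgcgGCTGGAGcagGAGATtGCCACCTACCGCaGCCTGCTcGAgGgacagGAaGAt
Over whole coding sequences the members had 76.1% identity between KRT7 and KRT8, 66.4% between KRT8 and KRT80, 64.6% between KRT8 and KRT18 and 66.6% between KRT18 and KRT19. The longest run of identical coding bases was 41 between KRT7 and KRT8 and 65 between KRT8 and KRT80, but only 17 between KRT18 and KRT19. The rule by which reads in such runs were assigned was not given in the sources used here.

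Each of the 6 libraries held 17226736 to 18652704 reads assigned to genes, and the size factors that scale them ran from 0.944 to 1.06. Normoxia replicate 3 had reads in the fewest genes, 16741, against up to 18858 in the others, and had the steepest slope of level on GC content (-0.403 on the log2 scale per 10 percentage points, against a range from -0.145 to 0.332 in the other 5). Nothing in the labels ties the replicates to separate cultures, so a p-value here reflects the spread among these libraries alone, and that spread may be technical. The hypoxic response itself was present: BNIP3, a mitophagy receptor, rose by 3.47 on the log2 scale, and the glycolytic genes PGK1 and LDHA rose by 1.77 and 1.70 (limma, largest adjusted p = 0.0236). These 3 are from a list of 12 hypoxia-responsive genes, all with a positive difference, of which limma called 7. Among those not called, ADM and P4HA1 differed by 2.31 and 1.91 (limma adjusted p = 0.107 and 0.212). Differences of that size could thus miss the threshold.

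No change with 8 h of hypoxia was detected for any of the 9 genes. The simple-epithelial keratins, KRT7, KRT8 and KRT18, together with vimentin, were among the most abundant transcripts of the line in both groups, KRT80 and CDH2 were at intermediate levels, MUC1 was low, and EPCAM and KRT19 were close to undetected. Of the 7 genes tested, 0 passed the threshold in limma, in edgeR or in DESeq2, and 0 had an unadjusted limma p under 0.05, where the smallest was 0.333. Over all 10237 genes tested, limma called 10 (0.0977%), edgeR called 0.0977% and DESeq2 called 0.489%, and 2.69% had an unadjusted p under 0.05. The hypoxia and normoxia libraries overlapped for all 9 genes, the 7 tested ones included. Among all tested genes, 7.48% had groups that did not overlap. That share is low, so the lack of a separated gene among the 7 does not set them apart. The median log2 difference of the 7 tested genes was -0.01, beside 0.00 over all tested genes, with 3 positive and 4 negative.

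The precision behind this differs between the members. For 6 of the 7 tested genes, all but MUC1, the 95% interval of the difference excluded a 2-fold change in either direction, while smaller changes lay within the intervals that 3 libraries a group allow. In bulk RNA, fewer cells that express a gene and less of its RNA per cell cannot be told apart. The sign of these small differences rested on single libraries: without normoxia replicate 3 the log2 difference was 0.15 for KRT7, 0.07 for KRT8, 0.15 for KRT18 and 0.04 for KRT80, and without hypoxia replicate 2 it was 0.02, 0.15 and 0.07 for KRT7, KRT8 and KRT18.

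**Figure D1:**
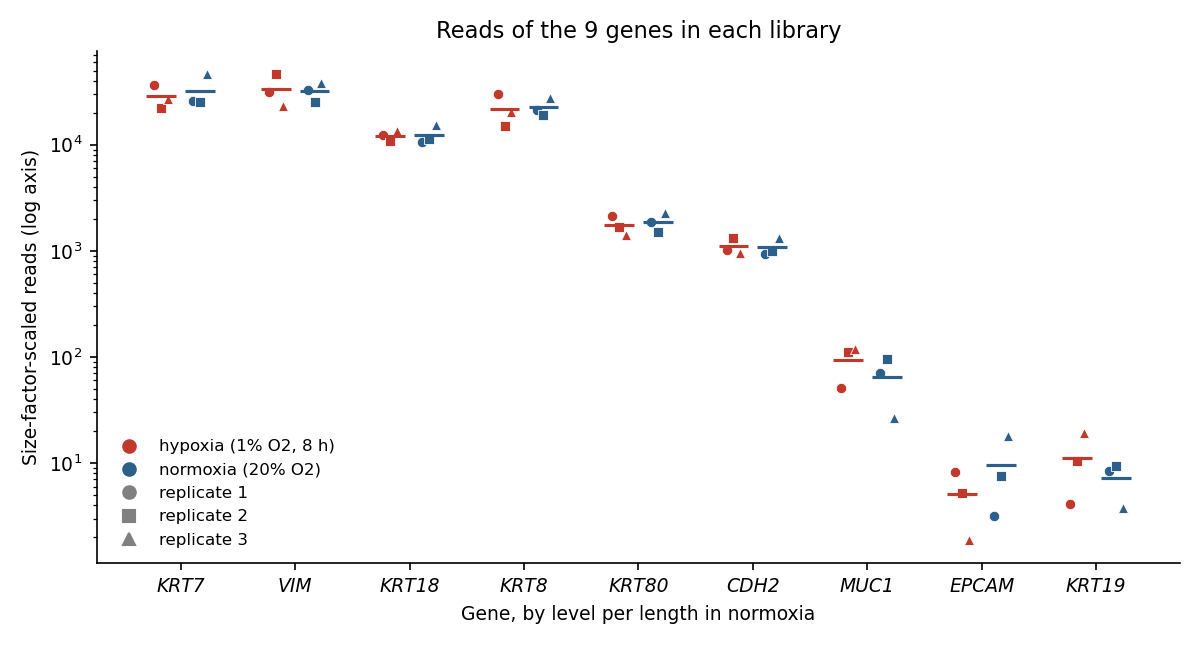
Size-factor-scaled reads on a log axis for the 9 genes, with hypoxia libraries (left of each pair) and normoxia libraries (right); the marker shape gives the replicate and the line the group mean. KRT7, VIM, KRT18 and KRT8 lie highest, each with at least 10563 scaled reads in every library, EPCAM and KRT19 have no more than 20 reads, and the groups overlap for all 9 genes.

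In normoxia the order of the members per gene length, on the FPKM scale (scaled reads divided by annotated exon length and by the mean library size, in the units of FPKM), was KRT7, VIM, KRT18, KRT8, KRT80, CDH2, MUC1, EPCAM and KRT19. KRT7 stood at rank 97 of all 22153 genes, VIM at 126, KRT18 at 214 and KRT8 at 251. KRT80 ranked 1867 and CDH2 3212, while MUC1 ranked 10941, EPCAM 14110 and KRT19 14628.

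Several neighbours in that order could not be separated. The normoxia ranges of KRT7 and VIM overlapped, as did those of KRT18 and KRT8, of MUC1 and EPCAM, and of EPCAM and KRT19. VIM lay above KRT18 without overlap, by 1.62-fold in the group means per length, KRT8 lay 7.62-fold above KRT80, KRT80 1.95-fold above CDH2, and CDH2 16.0-fold above MUC1. These ratios are for summed exon length and moved with the length used: with the longest annotated transcript KRT8 lay 16.4-fold above KRT80, and with the principal transcript CDH2 averaged 14.1 and MUC1 4.21 on the FPKM scale in normoxia. The order of KRT18 and KRT8 depended on it as well: with the longest annotated transcript in place of the summed exons, KRT8 averaged 440.0 and KRT18 333 on the FPKM scale in normoxia.

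KRT8 and KRT18, the basic pair of simple epithelial filaments, lie next to each other on chromosome 12 and were both abundant. KRT8 (ENSG00000170421, chr12:52897187-52949954, minus strand, GRCh38) had 30344, 15154 and 20157 scaled reads in the hypoxia libraries, against 21143, 19057 and 27279.5 in the normoxia libraries. Both the highest and the lowest KRT8 value were in hypoxia, in replicates 1 and 2, and the normoxia values lay between them. The means were 21885 ± 7741 scaled reads in hypoxia and 22493 ± 4274 in normoxia (SD, n = 3 each), which gave a limma log2 difference of -0.08 (SE 0.29, 95% interval -0.75 to 0.59, adjusted p = 1.00).

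KRT18 (ENSG00000111057, chr12:52948871-52952901, plus strand) had 12308, 10896 and 13387 scaled reads in hypoxia, against 10563, 11312.5 and 15392 in normoxia. All 3 hypoxia values lay within the normoxia range. KRT18 averaged 12197 ± 1249 scaled reads in hypoxia and 12422 ± 2599 in normoxia, with a log2 difference of -0.01 (SE 0.22, 95% interval -0.51 to 0.49, adjusted p = 1.00). On the FPKM scale KRT8 averaged 178 ± 63.0 in hypoxia and 183 ± 34.8 in normoxia, and KRT18 averaged 212 ± 21.7 in hypoxia and 216 ± 45.2 in normoxia.

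KRT7, the type II keratin of ductal and glandular epithelia, was the most abundant keratin per length. KRT7 (ENSG00000135480, chr12:52232520-52252186, plus strand) had 36602, 22314 and 26889 scaled reads in hypoxia, against 25631, 25005 and 46331 in normoxia. Normoxia replicate 3 held the highest value and hypoxia replicate 2 the lowest, and the other 4 libraries were mixed. Its means were 28602 ± 7297 scaled reads in hypoxia and 32322 ± 12136 in normoxia, or 391 ± 99.8 in hypoxia and 442 ± 166 in normoxia on the FPKM scale, with a log2 difference of -0.15 (SE 0.31, 95% interval -0.85 to 0.56, adjusted p = 1.00).

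KRT80, a type II keratin that lies 40.5 kb from KRT7, was expressed at a much lower level. KRT80 (ENSG00000167767, chr12:52168996-52192000, minus strand) had 2144, 1674 and 1408 scaled reads in hypoxia, against 1859, 1491 and 2250.4 in normoxia. The groups overlapped, with the highest value in normoxia replicate 3 and the lowest in hypoxia replicate 3. The means were 1742 ± 373 scaled reads in hypoxia and 1867 ± 380.0 in normoxia, and the log2 difference was -0.10 (SE 0.25, 95% interval -0.68 to 0.48, adjusted p = 1.00).

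KRT19, EPCAM and MUC1 are widely used markers of epithelial and carcinoma cells, and in this line they were scarce or barely detected. KRT19, the smallest keratin and a type I chain (ENSG00000171345, chr17:41523617-41528308, minus strand), had 4, 10 and 20 reads in hypoxia, against 8, 10 and 4 in normoxia. EPCAM, a homophilic adhesion molecule of epithelial cells (ENSG00000119888, chr2:47345158-47387601, plus strand), had 8, 5 and 2 reads in hypoxia, against 3, 8 and 19 in normoxia. The groups overlapped for both genes, and 1 library held the highest value of each: hypoxia replicate 3 for KRT19 and normoxia replicate 3 for EPCAM.

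Both lay below the filter of 1 on the FPKM scale in at least 3 libraries. With no filter, limma gave a log2 difference of 0.35 for KRT19 (SE 0.50, 95% interval -0.82 to 1.51, adjusted p = 1.00) and of -0.46 for EPCAM (SE 0.52, 95% interval -1.69 to 0.77, adjusted p = 1.00). The KRT19 interval includes a 2-fold rise and the EPCAM interval a 2-fold fall. At 2 to 20 reads per library these changes could thus not be excluded. EdgeR and DESeq2 with no filter gave larger log2 differences, 0.65 and 0.63 for KRT19 and -0.85 and -0.91 for EPCAM. These fits were chosen after seeing the data. On the FPKM scale KRT19 averaged 0.268 in hypoxia and 0.173 in normoxia, and EPCAM averaged 0.114 in hypoxia and 0.212 in normoxia.

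MUC1, a membrane-bound mucin of the apical epithelial surface (ENSG00000185499, chr1:155185824-155192916, minus strand), had 49, 108 and 124 reads in hypoxia, against 67, 102 and 28 in normoxia. The groups overlapped, with normoxia replicate 3 lowest and hypoxia replicate 3 highest. After scaling it averaged 93.6 ± 37.1 reads in hypoxia and 64.6 ± 35.6 in normoxia (SD, n = 3 each), with a log2 difference of 0.55 (SE 0.53, 95% interval -0.68 to 1.77, adjusted p = 1.00). The interval runs from 0.625-fold to 3.41-fold on the log2(FPKM + 0.1) scale, and without normoxia replicate 3 the log2 difference was 0.08.

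CDH2, N-cadherin, and VIM are usually read as mesenchymal genes in carcinoma cells, but N-cadherin and vimentin are also made by endothelial cells, so neither is specific to 1 parent. CDH2 (ENSG00000170558, chr18:27950966-28177446, minus strand) had 1014, 1329 and 957 scaled reads in hypoxia, against 934, 1004 and 1324 in normoxia. In each group 1 library stood above the others, hypoxia replicate 2 and normoxia replicate 3, and the groups overlapped over almost their whole ranges. The means were 1100.3 ± 200.4 scaled reads in hypoxia and 1087 ± 208 in normoxia, or 12.4 in hypoxia and 12.3 in normoxia on the FPKM scale. The limma log2 difference was 0.02 (SE 0.24, 95% interval -0.54 to 0.58, adjusted p = 1.00).

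VIM (ENSG00000026025, chr10:17228259-17237593, plus strand) had 31249.8, 45863 and 22943 scaled reads in hypoxia, against 32849.6, 25321 and 38312 in normoxia. The highest and the lowest library were both hypoxic, replicates 2 and 3, and enclosed the normoxia values. VIM averaged 33352 ± 11604 scaled reads in hypoxia and 32161 ± 6523 in normoxia, with a log2 difference of 0.02 (SE 0.29, 95% interval -0.66 to 0.69, adjusted p = 1.00). Scaling to library totals turned the sign of both genes, to -0.0559 for CDH2 and -0.0598 for VIM.

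**Figure D2:**
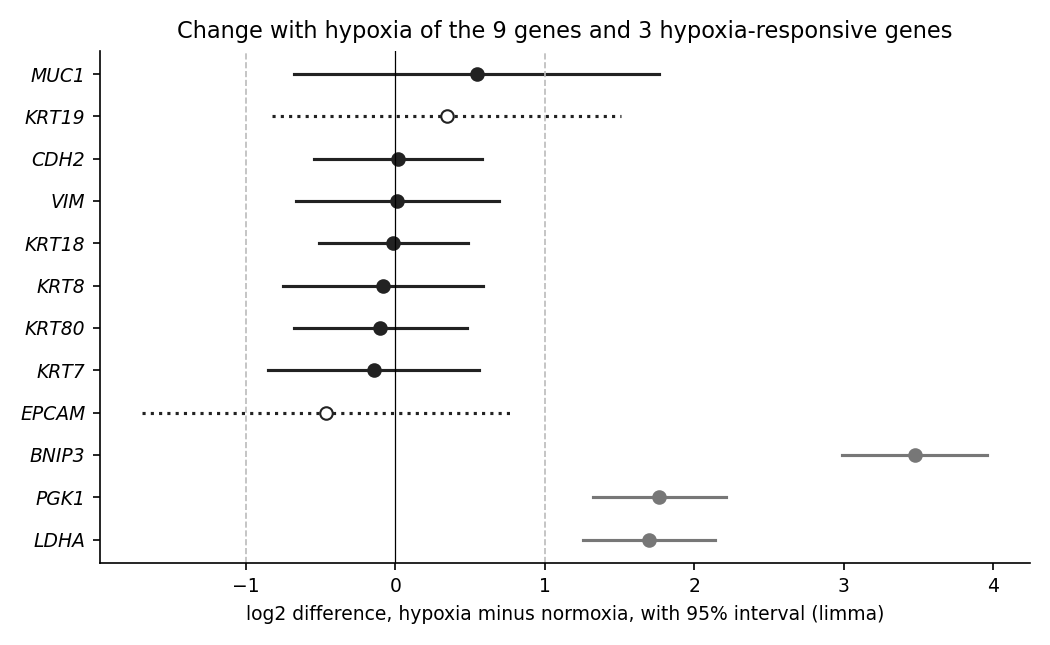
Log2 difference between hypoxia and normoxia for the 9 genes and for BNIP3, PGK1 and LDHA, with limma 95% intervals; open points with dotted lines are KRT19 and EPCAM from the fit with no filter, and dashed lines mark a 2-fold change. All 9 intervals include 0, and only those of MUC1, KRT19 and EPCAM reach past a dashed line, whereas BNIP3, PGK1 and LDHA lie entirely above 1.

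The 5 keratins together made up a sizeable part of the transcriptome. They took 0.442%, 0.259% and 0.365% of all assigned reads in the hypoxia libraries, against 0.324%, 0.348% and 0.526% in the normoxia libraries. Hypoxia replicate 2 was lowest and normoxia replicate 3 highest, and the groups overlapped. The mean share was 0.355% ± 0.0921 in hypoxia and 0.400% ± 0.110 in normoxia (SD, n = 3 each).

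Within this pool the make-up was similar in both groups. Per length, KRT7 held 48.4% of the summed keratin level in hypoxia and 50.3% in normoxia, and KRT8 held 21.7% in hypoxia and 21.5% in normoxia. KRT18 held 27.0% in hypoxia and 25.3% in normoxia, and KRT80 held 2.82% in hypoxia and 2.83% in normoxia. KRT19 held 0.0357% in hypoxia and 0.0225% in normoxia, so KRT18 supplied nearly all of the type I level among the 5. Counted as reads and not per length, KRT8 held 33.4% in hypoxia and 33.0% in normoxia, and KRT18 19.5% in hypoxia and 18.2% in normoxia.

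Since filaments pair the types in equal number, the transcript ratio of type II (KRT7, KRT8, KRT80) to type I (KRT18, KRT19) was also taken. Per length it was 3.62, 2.37 and 2.36 in the hypoxia libraries, against 2.97, 2.62 and 3.30 in the normoxia libraries. Type II transcripts were in excess in all 6 libraries, and the groups overlapped. With the longest transcript as the length the mean ratio was 4.17 in hypoxia and 4.44 in normoxia, so its size depended on the length chosen. It is a ratio of transcripts and gives no protein ratio.

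The balance of keratin and vimentin varied more between libraries than between groups. The 5 keratins had 2.60, 1.09 and 2.70 reads per VIM read in the hypoxia libraries, against 1.80, 2.25 and 2.38 in the normoxia libraries. Hypoxia replicate 2 stood apart, with the lowest keratin share and the highest VIM share (0.237% of its reads, against 0.135% to 0.221% in the other 5). Without that library, the log2 difference was 0.15 for KRT8 and -0.24 for VIM.

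**Figure D3:**
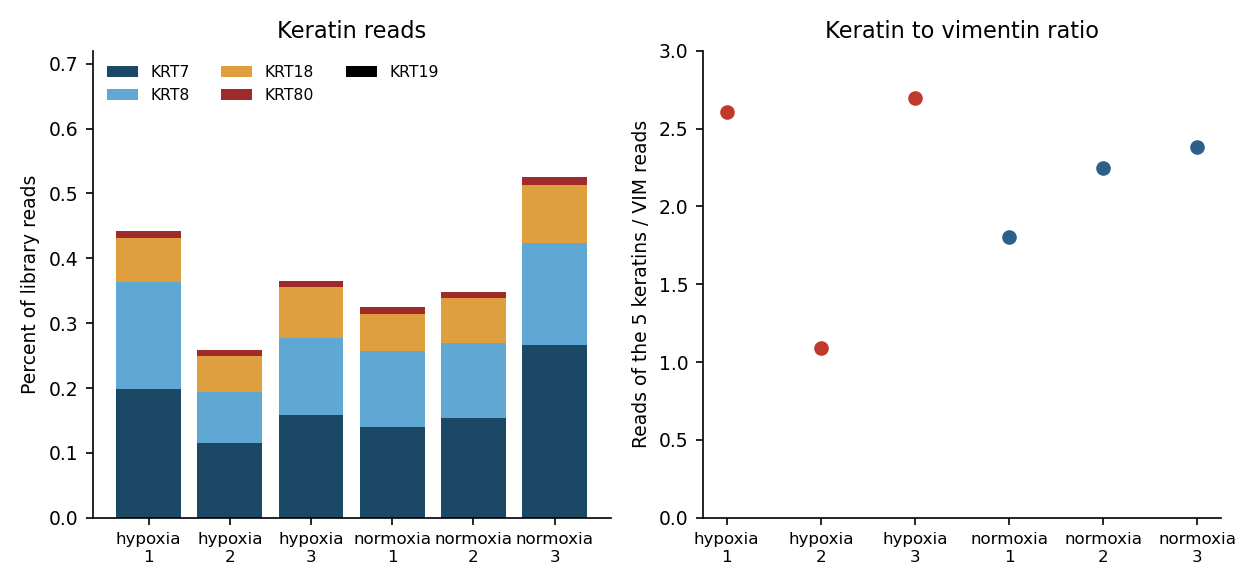
Left, reads of the 5 keratins as a percent of all reads assigned to genes, stacked by gene, in the 3 hypoxia and 3 normoxia libraries; KRT19, at no more than 20 reads a library, is too thin to see. Right, the ratio of keratin reads to VIM reads in the same libraries, which is lowest in hypoxia replicate 2 at 1.09 and between 1.80 and 2.70 in the other 5.

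The members differed in how far they varied across the 6 libraries. The spread from the lowest to the highest library on the log2 scale was 1.05 for KRT7, 1.00 for KRT8, 0.54 for KRT18, 0.67 for KRT80, 0.50 for CDH2, 1.00 for VIM and 1.86 for MUC1, beside a median of 0.97 over all tested genes. KRT18 and CDH2 were thus among the steadier genes, with 86.2% and 88.8% of tested genes spreading more widely, and MUC1 was among the more variable. Normoxia replicate 3 was the highest library for KRT7, KRT18, KRT80 and EPCAM and the lowest for MUC1 and KRT19. The same library had the steepest GC slope, and its part in these values was not tested.

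The genes with the pattern most like KRT8 over the 6 libraries were FH (fumarate hydratase), SGK1 (a serum- and glucocorticoid-regulated kinase) and HAUS8 (a subunit of the augmin complex), with root mean square differences of centred log2 levels of 0.07, 0.08 and 0.08 among 5271 candidates. For KRT18 they were SPTY2D1, IARS2 (mitochondrial isoleucyl-tRNA synthetase) and NCAPG2 (a condensin subunit), at 0.04, 0.05 and 0.06 among 8831 candidates. No other keratin was among these nearest genes. Candidates had to vary at least as much as the gene itself. KRT18 and KRT80, with log2 SDs of 0.206 and 0.274 against 0.363 for KRT8, were therefore not candidates for KRT8. KRT7 was at place 71 for KRT8 and at place 1018 for KRT18, and KRT8 itself was at place 1506 for KRT18. The reads ratio of KRT8 to KRT18 was 2.47, 1.39 and 1.51 in hypoxia, against 2.002, 1.68 and 1.77 in normoxia.

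The high keratins are the outer genes of the type II cluster. Chromosome 12 holds 27 annotated keratin genes, 26 of type II plus KRT18. They span 783.9 kb, with KRT80 and KRT7 at the start and KRT8 and KRT18 at the end. Of the 23 keratins annotated in the 645.0 kb between KRT7 and KRT8, 2 had a row in the table analysed here, KRT86 and KRT81, which encode hair keratins. KRT86 averaged 0.0640 in hypoxia and 0.0717 in normoxia on the FPKM scale, and KRT81 averaged 0.218 in hypoxia and 0.184 in normoxia. The other 21, among them the epidermal genes KRT5 and KRT1, had no row and were not analysed here.

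On chromosome 17, 8 of 27 type I keratins had a row, and the 2 with a normoxia mean of at least 1 on the FPKM scale were KRT10 and KRT15. KRT15, a basal-layer keratin, had 464, 304 and 618 reads in hypoxia, against 226, 366 and 235 in normoxia. The groups overlapped through hypoxia replicate 2 and normoxia replicate 2. KRT15 averaged 3.65 ± 1.09 in hypoxia and 2.13 ± 0.537 in normoxia on the FPKM scale, with a log2 difference of 0.73 (95% interval -0.02 to 1.49, limma adjusted p = 1.00). KRT10, a keratin of differentiating epidermis, averaged 8.37 ± 0.963 in hypoxia and 9.15 ± 4.25 in normoxia, with a log2 difference of 0.00.

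**Figure D4:**
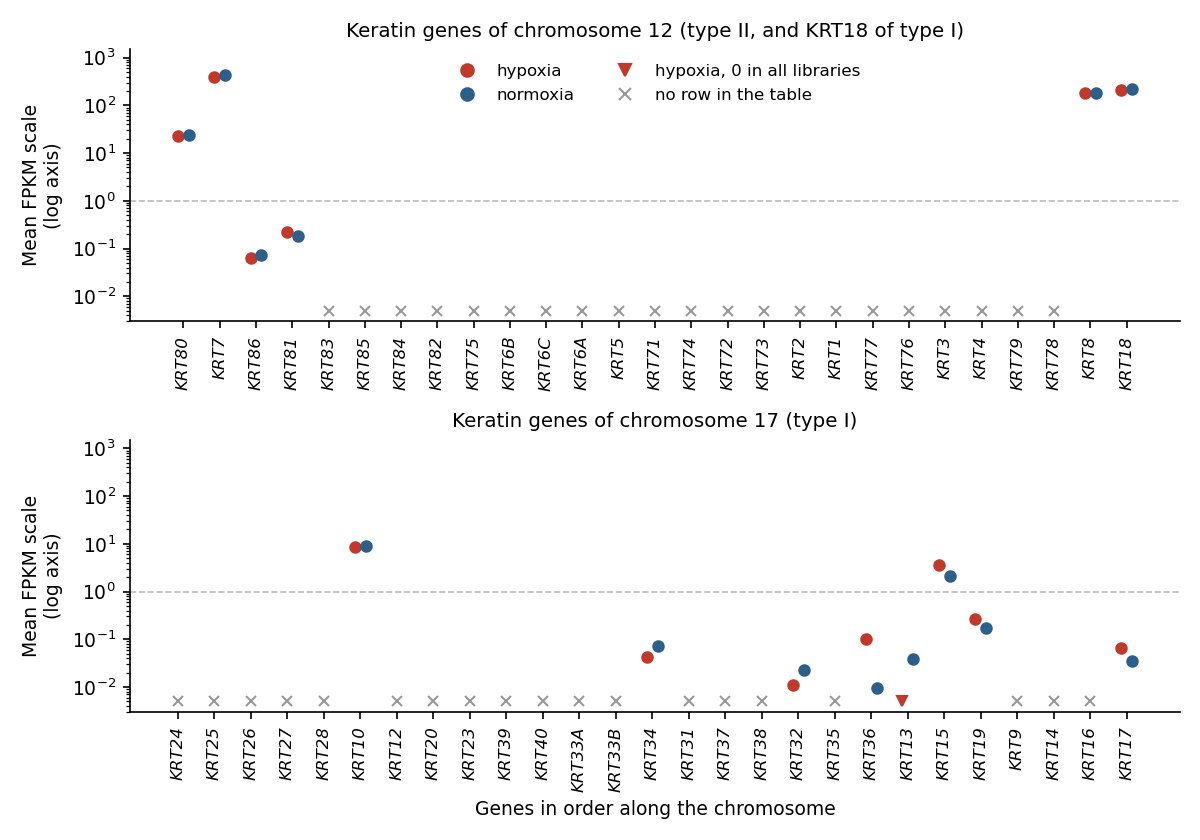
Mean FPKM-scale level (log axis) of each keratin gene in its order along chromosome 12 (top) and chromosome 17 (bottom), hypoxia left of normoxia, with a dashed line at 1; grey crosses mark genes with no row in the table analysed here and the triangle a gene with 0 reads in all hypoxia libraries. KRT80 and KRT7 at the start and KRT8 and KRT18 at the end of the chromosome 12 cluster are high, and KRT10 and KRT15 are the only chromosome 17 keratins above 1.

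Some of these counts could include reads of other genes. KRT8 and KRT18 lie on opposite strands and share 525 bases of annotated exon, 7.63% of the KRT8 exon length and 16.3% of that of KRT18. VIM shares 641 exon bases (12.4%) with the antisense gene VIM-AS1, and KRT7 shares 282 (6.89%) with KRT7-AS. Whether the counting used strand was not given in the sources used here, and reads in these stretches cannot be told apart by gene. The antisense genes themselves had few reads, 468 for VIM-AS1 and 291 for KRT7-AS over all 6 libraries.

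KRT8 and KRT18 also have many processed pseudogenes, intronless copies of the transcript inserted elsewhere in the genome. The 16 KRT8 copies with a row in the table together held 2499 reads, 1.86% of those of KRT8, and the 12 KRT18 copies held 68 reads, 0.0910% of those of KRT18. The copies of KRT8 amounted to 1.25%, 3.25% and 2.42% of KRT8 reads in hypoxia, against 1.77%, 2.06% and 1.30% in normoxia, with overlapping groups. The copy with the most reads, KRT8P14 on chromosome X, was chosen after its values were seen. It had 173, 270 and 285 reads in hypoxia, against 184, 200 and 200 in normoxia, and matched the KRT8 coding sequence at 92.2% of 1428 aligned bases. Its longest run of exact identity with KRT8 was 82 bases. With the copies added to their parents, the mean ratio of type II to type I was 2.80 in hypoxia and 2.98 in normoxia, against 2.78 in hypoxia and 2.96 in normoxia without them.

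Most genes listed as keratin partners had a row, but several of them were near or below the filter, and those tested did not pass. The list held 15 genes, among them the linker proteins that tie filaments to junctions. Of the 15, 12 had a row and 8 were tested, with 0 called and a median log2 difference of -0.09. DSP, EVPL and PKP1 had no row in the table analysed here, and DST, PPL, KRTCAP2 and KRTCAP3 lay below the filter. KRTCAP2 and KRTCAP3 are named for keratinocytes, not for binding keratin, so their low values do not bear on keratin partners. The partners with the highest levels are given next. PLEC, a linker of filaments to adhesion sites, averaged 111 in hypoxia and 120.0 in normoxia on the FPKM scale. JUP, plakoglobin of desmosomes and adherens junctions, averaged 71.1 in hypoxia and 90.2 in normoxia, and TRADD, an adaptor of tumour necrosis factor receptors known to bind KRT18, averaged 37.3 in hypoxia and 33.2 in normoxia. Of 15 other intermediate filament genes, VIM included, 6 were tested and 0 called, with a median of -0.28. The nuclear lamins LMNA and LMNB2 averaged 345 and 62.3 in hypoxia, against 451 and 75.5 in normoxia.

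Epithelial adhesion genes were present in part. Of 35 listed, 27 had a row, 11 were tested and 0 were called, with 4 positive and 7 negative differences and a median of -0.12. E-cadherin (CDH1), DSC2, DSC3, DSG2, DSG3, CLDN3, CEACAM5 and CEACAM6 had no row in the table analysed here. On the FPKM scale CLDN4 averaged 0.176 in hypoxia and 0.106 in normoxia, and CLDN7 averaged 0.0841 in hypoxia and 0.104 in normoxia. Higher levels were found for other genes of the list. The laminin receptor subunit ITGB4 averaged 48.5 ± 41.7 in hypoxia and 19.3 ± 9.98 in normoxia on the FPKM scale and the laminin chain LAMB3 averaged 27.3 in hypoxia and 23.7 in normoxia. The groups overlapped for both, and hypoxia replicate 2 held the highest ITGB4 value, 96.5.

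Regulators of epithelial identity and genes that usually accompany them were low. Of 22 listed, 14 had a row and 1, KLF4, was tested, at 1.28 in hypoxia and 1.31 in normoxia on the FPKM scale. Their summed level was 2.09 to 2.82 in the hypoxia libraries and 2.07 to 2.35 in the normoxia libraries. Among 17 mucins, 11 had a row and MUC1 was the only one tested; MUC13, the next, averaged 0.582 in hypoxia and 0.712 in normoxia. Of 24 genes of lung epithelium, 12 had a row and 2 were tested with 0 called: the retinal dehydrogenase ALDH1A1, at 39.3 in hypoxia and 38.1 in normoxia, and the surfactant lipid transporter ABCA3, at 5.04 in hypoxia and 4.28 in normoxia.

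Against this, endothelial genes were broadly expressed, as the label of the cells states. Of 27 endothelial genes 26 had a row and 24 were tested, of which 0 were called, and 20 had a mean of at least 10 on the FPKM scale. EGFL7 averaged 718 in hypoxia and 699 in normoxia, ENG 432 in hypoxia and 342 in normoxia, and CDH5, the endothelial cadherin, 197 in hypoxia and 151 in normoxia. Its level was thus above that of N-cadherin in each group. TEK, the angiopoietin receptor, chosen after its values were seen, was the only one with an unadjusted p under 0.05 and with groups that did not overlap, at 20.9 ± 2.53 in hypoxia and 14.7 ± 2.19 in normoxia.

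The mesenchymal list gave 20 tested genes of 30, with 0 called, 17 positive differences and a median of 0.15. MMP2, a matrix metalloproteinase, averaged 394 in hypoxia and 331 in normoxia on the FPKM scale, with overlapping groups. Markers of other cells were low: the summed level of the 9 fibroblast and mural genes with a row, of 14 listed, was 14.3 to 15.3 in hypoxia and 10.6 to 22.2 in normoxia, and that of the 4 leukocyte genes with a row, of 10 listed, was 1.11 to 2.85 in hypoxia and 0.535 to 3.24 in normoxia. The defining markers PDGFRA, DCN, PTPRC and CD3E had no row in the table analysed here. Which parental genome the transcripts of the 9 genes came from was not tested.

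**Figure D5:**
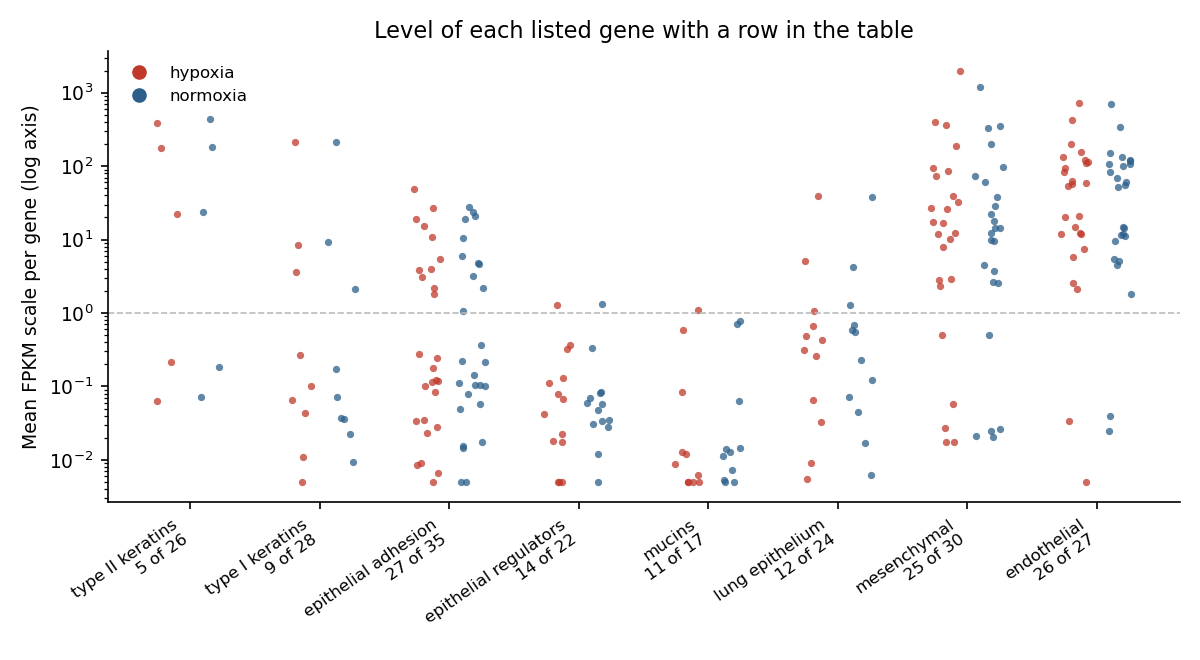
Mean FPKM-scale level (log axis) of every gene with a row in 8 lists, hypoxia left of normoxia in each list, with the number with a row and the number listed under each name; means under 0.005 are drawn at 0.005 and the dashed line marks 1. Keratin levels reach those of the highest endothelial and mesenchymal genes, whereas the epithelial regulators and mucins lie near or below 1.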

How the data were processed

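Polyadenylated RNA of 3 hypoxia and 3 normoxia libraries was analysed from the gene table the authors deposited. The submitters' processing notes name CASAVA, HISAT2 2.0.5 and featureCounts 1.5.0-p3. They also list the mouse build mm9, although all 22153 identifiers are human; which build, annotation and strand handling the counting relied on was not given in the sources used here. By its name the deposited table holds FPKM, yet the signal was found to be whole read counts divided by 1 size factor per library: 100% of values were whole multiples of a step (tolerance 0.05 of a step). Reads were recovered from the step. The design had assumed FPKM, so the scaled values were divided by summed exon length (GENCODE 29) and by the mean library total of 17862226 reads.

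Genes with a value of 1 or more on this scale in at least 3 libraries were fitted as log2(value + 0.1) with limma 3.58.1 (R 4.3.3; trend, robust, two-sided), and p-values were adjusted by Benjamini-Hochberg over all 10237 genes, with a threshold of 0.05. Fold changes on this scale understate those of low genes. Recovered reads were tested with edgeR 4.0.16 (quasi-likelihood) and DESeq2 1.42.0. The script was checked on simulated reads. Alternatives were other pseudocounts, filters, scalings and gene lengths, GC correction, the replicate number as a block, and each library left out.

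The 9 genes and the gene lists were chosen with earlier results of these data known. Genes outside the 9 were named by rule: keratins with a mean of 1 or more, up to 3 genes of each list with the highest level, and those most like KRT8 and KRT18 among genes that vary at least as much. Some genes and sequences that these rules name are not reported here. Gene positions and rod-end sequences are from GENCODE 29 (GRCh38), matched by identifier; 21988 identifiers had a symbol in the name table.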

Additional observations from a re-analysis of the deposited data

How the results depend on the processing

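Of the members that each setting tested, 0 passed in every setting run: 7 were tested in most settings, 6 under the stricter filter and all 9 with no filter. The number of all genes called higher in hypoxia, 10 with limma, was 3 with no filter on low values, 45 with DESeq2, 21 with GC correction, and 1 to 19 when single libraries were left out (19 without normoxia replicate 3; 4 and 5 without normoxia replicates 1 and 2; 5, 3 and 1 without hypoxia replicates 1, 2 and 3). The number called lower, 0 with limma, was 1 with a pseudocount of 1, with no filter and with GC correction, 5 with DESeq2, and 0 to 1 with single libraries left out.

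The labels share replicate numbers between groups but name no pairing. Deviations from the group means correlated at -0.398, 0.240 and 0.224 for numbers 1, 2 and 3. Hypoxia replicate 1 correlated best with normoxia replicate 3 (0.505), and hypoxia replicate 2 with normoxia replicate 1 (0.609). Deviations from a mean of 3 libraries depend on each other, so these values cannot decide whether the numbers pair the libraries. With the replicate block 19 genes were called higher, and with the block and GC correction 27 were higher and 2 lower.

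Signs of the small differences were not stable. The log2 difference of CDH2 was -0.0559 with library-total scaling, -0.00301 with DESeq2, and -0.0195 with GC correction, with or without the block; that of VIM was -0.0598 with library-total scaling and -0.0251 with GC correction, with or without the block. Library-total scaling put the median of all tested genes at -0.07. With single libraries left out the ranges were -0.34 to 0.15 for KRT7, -0.35 to 0.15 for KRT8, -0.12 to 0.15 for KRT18, -0.26 to 0.0436 for KRT80, 0.08 to 0.90 for MUC1, -0.12 to 0.17 for CDH2 and -0.24 to 0.26 for VIM. Leaving out hypoxia replicate 3 turned KRT80 positive; leaving out normoxia replicate 2 turned CDH2 (-0.03) and VIM (-0.15) negative, and leaving out normoxia replicate 1 turned CDH2 negative (-0.08). MUC1 had no value under the stricter filter. The causes were not tested. EPCAM and KRT19 kept their sign in edgeR and DESeq2 with no filter, an alternative chosen after seeing the data.

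Levels per length moved with the length chosen: with the principal transcript, also chosen after seeing the data, the normoxia means on the FPKM scale were 1032 for KRT7, 843 for VIM, 592 for KRT8, 445 for KRT18 and 4.21 for MUC1. KRT19 and EPCAM rest on 2 to 20 reads a library.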

Other observations

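The antisense neighbour of KRT10, the gene KRT10-AS1, had 227, 179 and 236 reads in hypoxia, against 121, 145 and 162 in normoxia. Every hypoxia library was above every normoxia library, but the gene did not pass the test (limma log2 difference 0.61, adjusted p = 1.00), and it was chosen after its values were seen. KRT10 itself had 344, 273 and 339 reads in hypoxia, against 390, 499 and 176 in normoxia. VIM-AS1, which overlaps VIM on the other strand, had 82, 41 and 106 reads in hypoxia, against 11, 54 and 174 in normoxia, so its highest and lowest libraries were both in normoxia.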
